A study of Mus musculus with 34 samples.

Results

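BATF was bound at 3401 sites that lay away from the ends of genes and had no IRF4 or Foxp3 peak on them. They were chosen from the 16109 BATF peaks of mouse Treg and conventional CD4 T (Tconv) cells by 2 conditions. The peak had no base in common with any of 9134 IRF4 peaks or 6396 Foxp3 peaks, and it lay more than 1000 bp from both ends of every protein-coding gene body. The gene bodies were those of RefSeq on GRCm38.p6, the assembly of mm10. The absence of a called peak does not show that IRF4 or Foxp3 was not bound, and the Foxp3 peaks came from Treg cells alone. The Foxp3 libraries were of wild-type Treg cells, sorted effector and central wild-type Treg cells, and Batf knockout Treg cells. Another 4842 BATF peaks without IRF4 and Foxp3 lay at gene ends, 4781 overlapped an IRF4 peak, 938 a Foxp3 peak and 2147 both.

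BATF is a basic leucine zipper factor of the AP-1 family. It has no transactivation domain of its own, pairs with JUN proteins on AP-1 motifs, and binds composite motifs together with IRF4. In T cells it is known for its role in effector differentiation, including that of effector Treg cells, which depend on Foxp3 as their lineage factor.

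Chromatin immunoprecipitation and sequencing measured BATF in CD4 T cells from spleen and lymph nodes of C57BL6/J mice, used after sorting. All mice of the first comparison carried Foxp3-IRES-hCD2, a reporter that puts human CD2 on cells that express Foxp3, and the sort took CD4+hCD2+ cells as Treg and CD4+hCD2- cells as Tconv. In a second experiment, Treg cells with the genotype Foxp3R397W-IRES-hCD2/Foxp3-IRES-GFP, which carries the R397W change in the forkhead domain of Foxp3, were set against Foxp3WT-IRES-hCD2/Foxp3-IRES-GFP controls. Both were sorted as CD4+hCD2+GFP- cells, from mice that also held Treg cells with the wild-type GFP allele. Each of these 4 groups had 2 libraries. Nothing in the labels says whether the libraries of a group came from separate mice, so p-values measure the spread between libraries, which may be technical. The libraries held 1377509 to 2280493 reads in peaks in the first experiment and 144319 to 655609 in the second, and total depth is not given. Values are normalised reads per peak, with 1 read worth 0.714 to 1.16 in the first experiment. As a check of the sort, 21 of the 23 BATF peaks at Foxp3, Ikzf2, Ctla4 and Il2ra were higher in Treg cells, and limma, edgeR and DESeq2 called 0 of the 7 at Cd3e, Cd4 and Lck in either direction (1 had an unadjusted p under 0.05).

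No genome sequence was at hand, so the sequence of most sites could not be read. A site away from the ends of a gene can still hold a start of it, such as an internal start, or the start of a long noncoding RNA. RefSeq start windows, which run from 250 bases before to 50 after an annotated start (GRCm38.p6), lay wholly inside 155 of the sites, with 167 windows of 118 coding and 49 noncoding genes. Of these 155 sites 2 were higher and 3 lower in Treg cells, against 12.6% and 9.26% of all 3401 sites. The windows of the higher site with the largest difference and of the lower site with an AP-1 motif are shown. Capitals mark the AP-1 motif TGANTCA, searched on both strands, and the Il1r2 window has neither this motif nor the CRE motif TGACGTCA.
Il1r2 chr1:40085843-40086142 (+): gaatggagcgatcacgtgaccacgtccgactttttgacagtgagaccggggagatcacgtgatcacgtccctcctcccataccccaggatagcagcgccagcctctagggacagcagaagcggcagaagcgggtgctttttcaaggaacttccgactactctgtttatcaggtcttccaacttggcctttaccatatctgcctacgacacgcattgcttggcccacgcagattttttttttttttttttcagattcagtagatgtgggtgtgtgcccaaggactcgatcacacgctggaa
Xkrx chrX:134162910-134163209 (-): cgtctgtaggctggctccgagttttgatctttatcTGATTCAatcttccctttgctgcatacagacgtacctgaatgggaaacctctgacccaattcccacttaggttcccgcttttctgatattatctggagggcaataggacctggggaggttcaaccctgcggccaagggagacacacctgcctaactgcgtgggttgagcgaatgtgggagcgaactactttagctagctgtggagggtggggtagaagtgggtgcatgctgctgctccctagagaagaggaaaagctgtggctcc

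The Il1r2 site (chr1:40085768-40086168) stood at 62.2 and 58.7 in the Treg libraries and at 5.81 and 9.28 in the Tconv libraries. The groups did not overlap, which its choice for the largest difference makes likely. Il1r2 encodes the decoy receptor of interleukin 1. The site at Xkrx (chrX:134162859-134163259) went the other way, at 8.29 and 9.03 in Treg cells against 29.0 and 45 in Tconv libraries (limma log2 fold change -1.94, SE 0.543, adjusted p = 0.0159). Xkrx and the sites named in the next paragraph were chosen for their sequence after the values were seen.

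Of the 167 windows 7 held TGANTCA (4.19%), against 7.81% of all 32817 RefSeq start windows, and 4 held TGACGTCA (2.4%), against 1.79%. In the windows inside BATF-only peaks at gene ends, TGANTCA was in 3.37% and TGACGTCA in 6.09%. The other 6 windows with an AP-1 motif are shown by 41 bases around it, with the motif in capitals.
Plaur chr7:24462397-24462437 (+): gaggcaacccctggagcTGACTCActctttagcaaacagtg
Zfp790 chr7:29816006-29816046 (+): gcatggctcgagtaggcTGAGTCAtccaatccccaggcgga
Myo1c chr11:75655915-75655955 (+): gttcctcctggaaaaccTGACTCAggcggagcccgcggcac
Adcy7 chr8:88289025-88289065 (+): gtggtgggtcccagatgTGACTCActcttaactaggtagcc
Gm30284 chr17:86444946-86444986 (-): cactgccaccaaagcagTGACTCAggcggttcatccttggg
Gm9875 chr2:13558677-13558717 (+): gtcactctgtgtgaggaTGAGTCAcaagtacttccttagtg
Of these 6 sites 0 were called by limma, edgeR or DESeq2, and 1, at Gm9875, had an unadjusted p under 0.05. BATF at Plaur, the urokinase receptor gene, stood at 20.7 and 46.3 in Treg and 53.4 and 32.1 in Tconv cells. At Adcy7, an adenylate cyclase gene, it stood at 69.5 and 49.7 against 51.1 and 44.3. At both the lower Treg library stood below the higher Tconv library.

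BATF differed between the cell types in both directions. In Treg cells 427 sites were higher (12.6%, against 14.9% of all BATF peaks) and 315 were lower (9.26%, against 4.79% of all BATF peaks). In either direction this was 742 sites or 21.8%, against 19.7% of all. The median log2 fold change was -0.0714 over the sites and -0.0267 over all peaks, with medians of 1.96 among the higher and -1.74 among the lower sites. The split between directions depended on the scaling. Under quantile normalisation, which moved the median of all peaks to -0.131, 336 sites were higher and 540 lower, so the share of higher calls fell from 57.5% to 38.4%. Without Treg library 1 or 2 the higher sites numbered 253 and 244. The sites were fitted with all peaks and no test was made of the class against other classes, because peaks are not replicates.

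**Figure D1:**
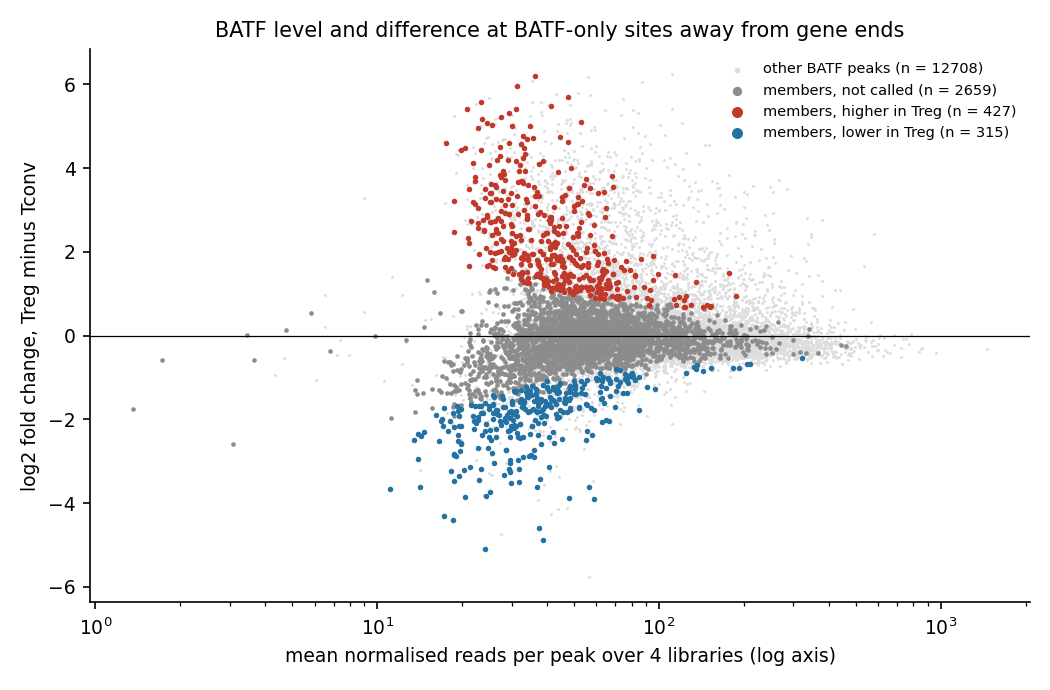
The mean normalised reads per peak over 4 libraries (x, log axis) are plotted against the log2 fold change of Treg minus Tconv cells (y) for each BATF peak. The coloured points are the 427 higher and 315 lower sites, most of which lie at low mean values.

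BATF values at the sites were low. Their median value over the 4 libraries was 50.4 normalised reads (quartiles 36.3 and 73.1), against 82.4 for all BATF peaks and 88.9 for BATF-only peaks at gene ends. The library medians were 52.9 and 53.1 in Treg cells and 51.1 and 50.7 in Tconv cells, so both Treg medians stood slightly above both Tconv medians. Of the sites 53.7% lay in the lowest quartile of all BATF peaks by mean value (up to 53.2) and 5.59% in the highest (above 130.0). The share of called sites was largest where BATF was weakest. The mean is taken over the same 4 libraries as the difference, so a site bound in 1 cell type alone falls toward the lower quartiles. In the lowest quartile 17% of the sites were higher and 13.5% lower, against 22.6% and 9.81% of all peaks of that quartile. In the third quartile these were 4.18% and 1.16%, against 10.6% and 2.04%. Beside BATF-only peaks at gene ends the share of higher sites was larger in each quartile (4.69% at gene ends in the lowest and 0.175% in the highest). Beside peaks that overlapped both IRF4 and Foxp3 it was smaller in each quartile (53.9% and 30.9%). Among the BATF peaks above the 25th percentile, 1575 of the sites were left, of which 108 were higher and 63 lower.

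**Figure D2:**
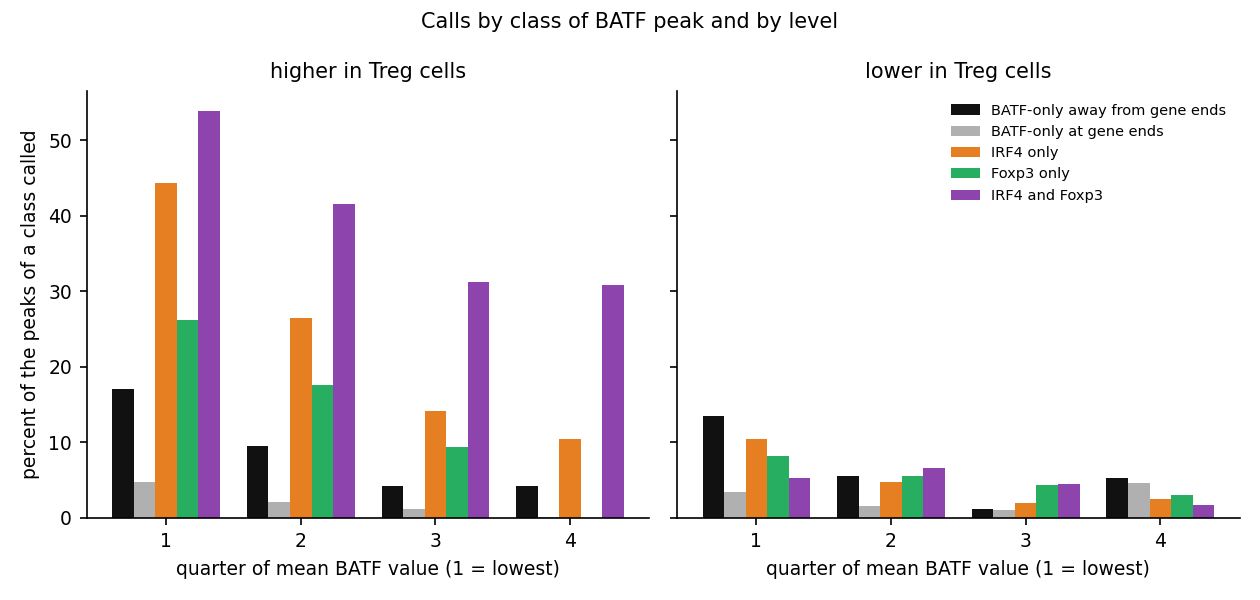
Bars give the percent of the peaks of a class called higher (left) or lower (right) in Treg cells, by quartile of the mean BATF value. The black bars of BATF-only sites away from gene ends fall from 17% to 4.21% on the left and stand at 13.5% in the lowest quartile on the right.

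The share of called sites also differed with position. Of the sites 65.1% lay in the body of a protein-coding gene, against 75.8% of all BATF peaks, and the median distance to a gene end was 8499 bp (quartiles 2908 and 26826 bp). Up to 5000 bp from a gene end 7.96% of the sites were higher and 5.49% lower. Beyond 50000 bp these were 19.1% and 14.6%. The mean values fell between the same bounds, from a median of 58.2 to 42.4, so distance and level moved together, and the part of level in this was not tested. The sites nearest to the limit were at Dlg4 and Kcnh4, both 1002 bp from a gene end, with 25.8 and 38.9 in Treg and 24.5 and 32.3 in Tconv cells. Just outside it lay Fermt3 at 1000 bp (132 and 104) and Lpin2 at 999 bp (54.1 and 23.6).

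Few sites on an annotated start were called. The 560 sites that overlapped a RefSeq start window had a median value of 77.8, and 12 were higher and 12 lower, or 2.14% each. The 2841 sites off any start window had a median of 47.1, with 14.6% higher and 10.7% lower. Within the lowest quartile of mean value the sites off start windows were higher in 17.9% and lower in 14.3%, against 4.55% and 3.03% of those on one. In the second quartile these were 11% and 6.6%, against 3.31% and 1.1%. In the highest quartile the lower sites were 4.63% off start windows (5 of 108) and 6.1% on them (5 of 82). The 6 sites of highest mean value lay at Oscp1, Efcab11, Mtfr2, Junb, Prdm10 and Ier5, and all but the Junb site lay on a start window. Limma, edgeR and DESeq2 called 0 of them, and 2 had an unadjusted p under 0.05, both toward lower. At Oscp1, a gene named for an organic solute carrier partner, BATF stood at 426 and 416 in Treg and 546 and 457 in Tconv cells (adjusted p = 0.361). Near Junb, which encodes a JUN partner of BATF, it stood at 272 and 452 against 257 and 383 (adjusted p = 0.717), and the groups overlapped.

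Many sites lay near BATF peaks shared with IRF4 or Foxp3, and calls at such pairs were seldom opposite. Of the sites 38.8% lay within 10000 bp of a BATF peak that overlapped an IRF4 or Foxp3 peak, against 18.8% of BATF-only peaks at gene ends. Where the nearest such peak was higher in Treg cells (341 sites), 112 of the sites were higher and 7 lower. Where it was lower (53 sites), 1 was higher and 17 lower. Where it was not called (925 sites), 92 were higher and 80 lower. Over these 1319 sites the log2 fold changes of site and neighbour correlated with Pearson r = 0.473 and Spearman rho = 0.384, as a description, since both come from the same 4 libraries. Without the 449 sites within 1000 bp of an IRF4 or Foxp3 peak, 345 of 2952 sites were higher (11.7%) and 294 lower (9.96%).

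Among sites at or above their median value, the largest rises lay near genes of Treg cells and of other kinds, and some weaker sites named further on rose more. Sites carry the name of the closest protein-coding gene up to 100000 bp away, whether or not they act on it, and 3298 sites near 2321 genes have such a name. A site within Lrrc32 (chr7:98491672-98492072), the gene of GARP, which holds latent TGF-beta on the Treg cell surface, stood at 97.4 and 106 in Treg cells and at 8.13 and 0 in the Tconv libraries (log2 fold change 5.09, SE 0.781, limma adjusted p = 0.000142). This call was lost under DESeq2 (adjusted p = 0.137). A site 42659 bp from Bhlhe40 (chr6:108709584-108709984), a helix-loop-helix repressor of effector T cells, stood at 105 and 101 against 10.5 and 4.28 (log2 fold change 3.73, SE 0.473). A site 1910 bp from Ptger2 (chr14:45005730-45006130), a prostaglandin E2 receptor gene, stood at 133 and 122 against 8.13 and 12.1 (3.55, SE 0.385). At these 3 sites both Treg libraries stood far above both Tconv libraries, which their choice for the largest rises makes likely. The others of largest rise at or above the median value were within Lmnb1, the lamin B1 gene (144 and 110.0 against 4.65 and 13.6), near Plagl1, a zinc finger gene (105 and 97.1 against 6.97 and 7.85), and near Lsm4, a gene of RNA processing (104 and 106 against 10.5 and 6.43). Fewer cells with a bound site and less binding per cell cannot be told apart in such bulk libraries.

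Among the same stronger sites, the 6 largest falls all lay inside gene bodies. A site within Rgmb (chr17:15821759-15822159), a coreceptor of bone morphogenetic proteins, stood at 11.4 and 3.39 in Treg cells and 92.9 and 128 in the Tconv libraries (log2 fold change -3.90, SE 0.509, adjusted p = 3.25e-05). A site within Dip2b (chr15:100182787-100183187) stood at 12.4 and 4.52 against 108 and 101 (-3.61, SE 0.474). The Dip2b site lay 541 bp from an IRF4 peak and 497 bp from a Foxp3 peak. A site within Sgk1 (chr10:21907006-21907406), a serum and glucocorticoid regulated kinase, stood at 19.7 and 16.9 against 91.8 and 94.3 (-2.29, SE 0.351). Treg and Tconv libraries did not overlap at any of them, which their choice for the largest falls makes likely. Falls within Fam78a, Adamts14 (a metalloprotease gene) and Usp12 (a deubiquitinase gene) measured -2.50, -2.38 and -2.07 on the log2 scale.

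**Figure D3:**
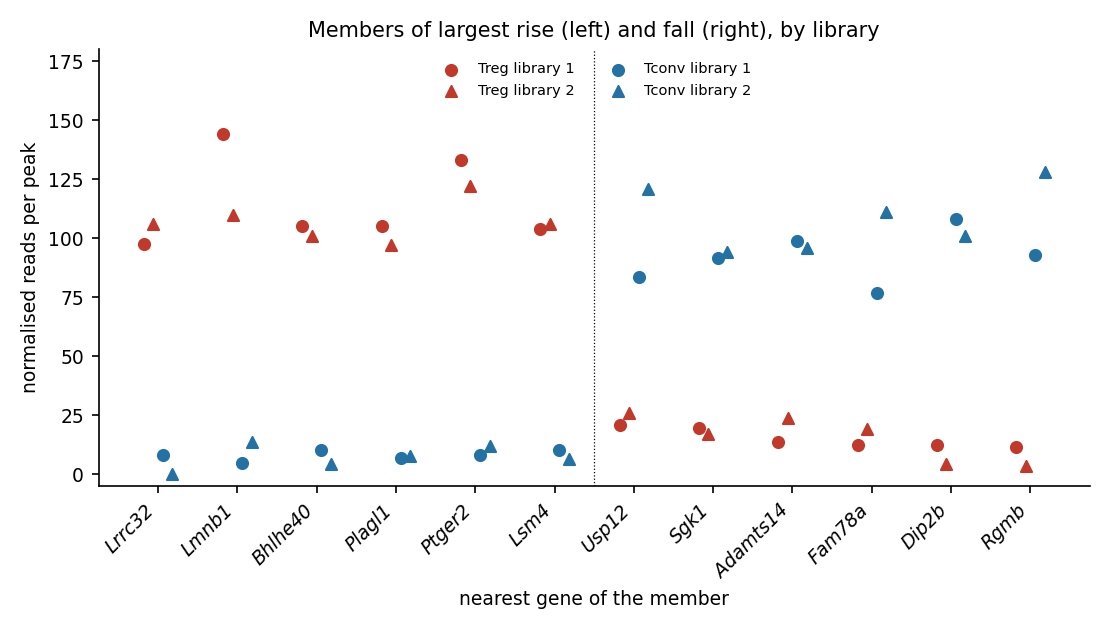
Normalised reads per peak (y) in each of the 4 libraries for the 6 sites of largest rise and the 6 of largest fall among sites at or above the median level, by nearest gene (x). Both Treg libraries lie above both Tconv libraries on the left and below them on the right, which the choice by size of change makes likely.

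Near Treg core genes 13 of 15 sites were higher in Treg cells and 0 lower, with a median log2 fold change of 2.19 (7 higher without Treg library 2). EdgeR and DESeq2 also called 0 lower, and 1 was lower at an unadjusted p under 0.05. Of all the sites 12.6% were higher and 9.26% lower, and of all BATF peaks 14.9% and 4.79%. These are the shares to set beside the counts of the lists here and below. Ctla4, the inhibitory receptor, had 5 of the core sites called higher. The strongest (chr1:60911540-60911940) stood at 107 and 82.4 against 26.7 and 27.8, and the largest rise among them, at 45.6 and 51.9 against 1.16 and 14.3, lay 6191 bp away from the gene. Il2rb, the beta chain of the interleukin-2 receptor, had a site at 96.4 and 82.4 against 8.13 and 13.6. Tnfrsf9, the costimulatory receptor 4-1BB, had 1 inside at 96.4 and 94.9 against 24.4 and 21.4. A site within Ikzf2, the gene of the factor Helios, stood at 48.7 and 57.6 in Treg cells, with both Tconv libraries (2.32 and 0.714) under the value of 3 reads. A second Lrrc32 site, 33282 bp from the gene, was at 48.7 and 59.9 against 1.16 and 0, also under 3 reads in both Tconv libraries. The gene lists share genes, so a site can be counted in more than 1 of them. Tnfrsf9 stood in the core and effector lists, Il2rb in the core and cytokine receptor lists, and Cd44 in the effector and adhesion lists. Bach2 stood in the central and AP-1 lists, and Batf in the effector and AP-1 lists. These lists were drawn up with results of these data known, and the genes named from them besides the pair of smallest p were chosen after their values were seen.

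Near effector Treg genes 14 of 22 sites were higher and 1 lower (median log2 fold change 2.11, and 11 higher without Treg library 1 or 2). Il10, the gene of the suppressive cytokine interleukin 10, had 6 of the higher sites, spread from within the gene to 23114 bp away. The one inside the gene (chr1:131021523-131021923) stood at 82.9 and 81.3 against 8.13 and 7.85 (log2 fold change 3.21, SE 0.44, limma adjusted p = 5.01e-05). This Il10 site lay 622 bp from an IRF4 peak and 16848 bp from a Foxp3 peak. Receptor genes were among the rest, with Icos at 62.2 and 40.7 against 5.81 and 0, and Klrg1 at 65.3 and 37.3 against 3.48 and 0.714. Cd44, an adhesion receptor of activated T cells, stood at 69.5 and 73.4 against 11.6 and 18.6. Of factors, Batf itself held a site inside the gene at 37.3 and 62.1 against 12.8 and 10.7, and Nfil3, a leucine zipper factor, 1 at 73.6 and 77.9 against 44.1 and 25. The site near Lag3, an inhibitory receptor gene, was lower, at 15.5 and 15.8 against 47.6 and 80.0.

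Of sites at central or naive T cell genes 7 of 64 were higher and 13 lower (median log2 fold change -0.148). Of the 13 lower sites 7 were at Lef1. Over all the sites 12.6% were higher and 9.26% lower, and among all BATF peaks 14.9% and 4.79%. Without Treg library 2 or Tconv library 1 the lower sites numbered 8, and without Treg library 1 the higher sites numbered 4. Lef1, a high mobility group factor of naive T cells and the gene with the most sites, held 13, of which 7 were lower and 0 higher by limma, edgeR and DESeq2 alike, also at an unadjusted p under 0.05. The lowest of them (chr3:131170117-131170517) stood at 12.4 and 11.3 in Treg and 83.6 and 55.0 in the Tconv libraries (log2 fold change -2.42, SE 0.434, limma adjusted p = 0.000547). This Lef1 site lay 578 bp from an IRF4 peak and 15771 bp from a Foxp3 peak. The strongest Lef1 site was not called, at 110.0 and 61.0 against 117 and 98.5. Foxp1, a forkhead factor of naive T cells, had 2 of 8 sites lower and 0 higher by limma, and 0 were higher by edgeR, DESeq2 or at an unadjusted p under 0.05. Bach2, a repressor of effector differentiation, had 10 sites and went both ways. One within the gene was at 69.5 and 67.8 against 22.1 and 3.57, and 1 at 71962 bp stood at 18.7 and 18.1 against 56.9 and 40.7. Foxo1, a forkhead factor of T cell homeostasis, had 3 higher sites, with the largest rise at 44.6 and 58.7 against 13.9 and 12.9. Tgfbr2, a TGF-beta receptor subunit, also went both ways, at 49.8 and 38.4 against 8.13 and 0.714 at a distance of 32799 bp and at 7.26 and 6.78 against 45.3 and 18.6 inside. In all 345 genes had a higher site, 256 a lower one and 14 both.

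Other genes with many sites did not move as Lef1 did. Bcor, a corepressor of BCL6, had 12 sites, of which limma, edgeR and DESeq2 called 0 and 0 had an unadjusted p under 0.05, with log2 fold changes from -0.418 to 0.747. Zfp217 had 8 sites with 0 called in the same sense. Arhgef10 had 8 with 0 called by limma, 1 higher by edgeR and 0 by DESeq2, with 2 rises and 1 fall at an unadjusted p under 0.05. Ets1, an ETS factor of T cells, had 2 of 8 higher, among them a site at 105 and 99.4 against 34.8 and 22.1 (chr9:32744294-32744694). Cd2, an adhesion receptor, had 3 of 8 higher with log2 fold changes up to 3.78.

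**Figure D4:**
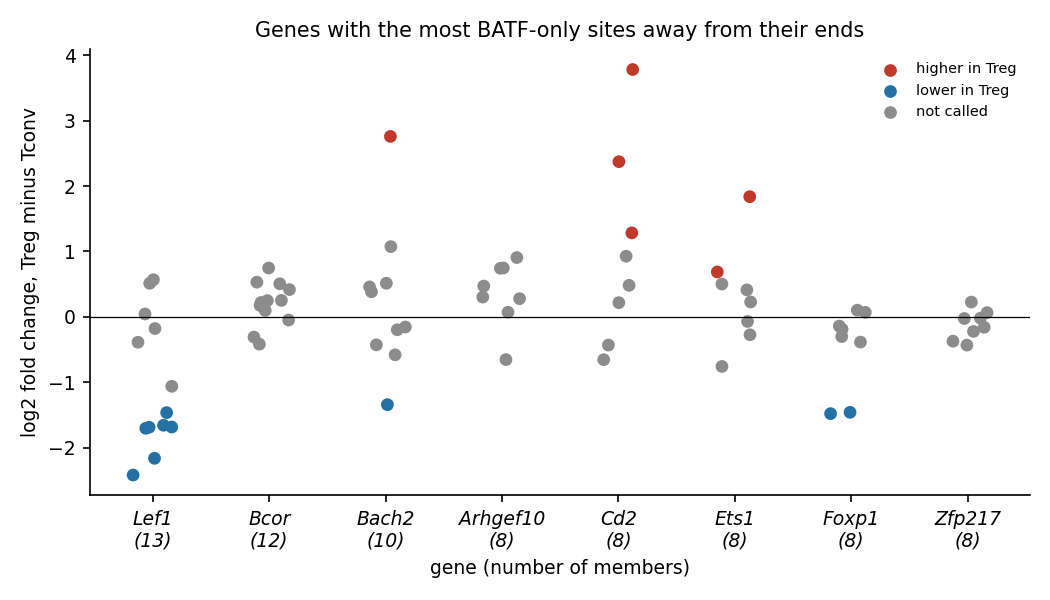
Each point is a site, with its log2 fold change of Treg minus Tconv cells (y), for the 8 genes with the most sites (x, number of sites in brackets). Lef1 has 7 lower sites and Bcor has 12 that were not called.

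Genes of AP-1 factors, BATF factors and IRFs had 30 sites, of which 7 were higher and 1 lower (median 0.206), with 0 lower without Tconv library 1. Atf3, a stress-induced leucine zipper factor, stood at 62.2 and 72.3 against 18.6 and 11.4, and Batf3, a BATF homologue, at 46.6 and 44.0 against 9.29 and 5.71. Both Treg libraries stood above both Tconv libraries at these sites, which are among the called ones. Of sites at T cell receptor and costimulatory genes 9 of 57 were higher and 3 lower (median 0.199), which are shares near the 14.9% and 4.79% of all BATF peaks. Over all the sites these shares were 12.6% and 9.26%. Without Treg library 2 the higher sites numbered 3, and under quantile normalisation the lower sites numbered 7. Rel, the NF-kappaB subunit c-Rel, was at 65.3 and 67.8 against 6.97 and 9.28. A site 40023 bp from Cd28, the costimulatory receptor, was at 4.15 and 5.65 against 43.0 and 51.4 (log2 fold change -3.04, SE 0.572), the other way. The Foxp3 partner factors share Lef1, Ets1, Foxo1 and Rel with the lists above. Of their 55 sites 7 were higher, a share near that of all sites (12.6%) and of all BATF peaks (14.9%). Lower were 9, of which 7 were the Lef1 sites above, against 9.26% of all sites and 4.79% of all BATF peaks. The median was -0.0369, and fewer were higher without Treg library 2. Under quantile normalisation 14 of the 55 were lower. Runx3 and Ikzf1, factors of T cell development, each had a lower site, at 10.4 and 13.6 against 39.5 and 39.3 and at 16.6 and 23.7 against 60.4 and 87.1.

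Of the cytokine receptor, JAK, STAT and SOCS genes 6 of 27 were higher and 1 lower (median 0.122, 3 higher without Treg library 1 and 0 lower without Tconv library 2), with Il1r2 and Il2rb above having the smallest p. Of adhesion and migration genes 6 of 18 were higher and 1 lower (median 0.186, and 3 higher without Treg library 2). A site 26541 bp from Itgav, an integrin chain that takes part in activating TGF-beta, stood at 90.2 and 98.3 in Treg cells and at 2.32 and 0 in Tconv cells, where 3 reads make 3.48 and 2.14. The lower site was near Cxcr4, a chemokine receptor gene (17.6 and 12.4 against 46.5 and 54.3). Of BCL-2 family genes 2 of 9 were higher, near Mcl1 (94.3 and 97.1 against 24.4 and 42.8) and near Bcl2l11 (38.4 and 47.4 against 4.65 and 15.0), the latter lost without Treg library 1 or 2 (adjusted p up to 0.126). Of T helper genes 1 of 10 was higher, near Il22 at 50.8 and 46.3 against 15.1 and 18.6 (12.6% of all the sites and 14.9% of all BATF peaks were higher). It was lost without Treg library 1 or 2, under DESeq2 and under quantile normalisation (adjusted p up to 0.123).

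Of 6 sites at housekeeping genes limma, edgeR and DESeq2 called 0, and at an unadjusted p under 0.05 there were 2 higher and 0 lower. Genes that mark other cells had few sites: 1 of B cell genes (Pax5, 38.4 and 23.7 against 41.8 and 35.7), 1 of myeloid genes (Cebpb, 190.0 and 159 against 139 and 89.3) and 7 of CD8 and NK cell genes. Among the latter a site near Prf1, the perforin gene, was lower in Treg cells (3.11 and 11.3 against 43.0 and 68.6). Over all BATF peaks at 5 markers each, the summed value of CD8 and NK markers was 411 to 459 in Treg and 516 to 519 in Tconv cells. For B cell markers it was 178 to 201 against 107 to 146, and for myeloid markers 73.4 to 104 against 48.8 to 59.3. Among the markers without a BATF peak were Ebf1, Ms4a1, Csf1r, Itgam, Lyz2, Cd8a and Ncr1, and the part of other cells in the differences was not tested.

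Some of the sites lay near microRNA genes. There were 30 within 3000 bp of 24 microRNA genes (0.882% of the sites, against 0.999% of all BATF peaks). Of these 30 sites 2 were higher and 3 lower, against 12.6% and 9.26% of all the sites. They were chosen after the values were seen. The mature sequences of the 5p arms of the microRNAs near called sites are shown (RefSeq), with the seed, bases 2 to 8, in capitals. No 2 of them share a seed.
mmu-miR-6416-5p: cUCCGUAUcaucugcucuucu
mmu-miR-425-5p: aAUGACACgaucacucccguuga
mmu-miR-21a-5p: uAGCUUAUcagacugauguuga
mmu-miR-7b-5p: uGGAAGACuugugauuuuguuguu
The site 2628 bp from Mir21a (chr11:86586785-86587185), which also lies in the gene Vmp1, stood at 146 and 155 in Treg and 39.5 and 40.0 in the Tconv libraries (log2 fold change 1.89, adjusted p = 3.98e-05). Mir21a is a microRNA raised in activated T cells. Around Mir6416, inside Trpm1, a site at 322 bp stood at 38.4 and 46.3 against 1.16 and 3.57, and another at 1226 bp at 14.5 and 14.7 against 61.6 and 42.8. A pair of sites at 1 microRNA gene thus differed in opposite directions. BATF was lower near Mir425 (177 and 141 against 258 and 246) and near Mir7b (63.2 and 45.2 against 94.1 and 121). The 4 sites around Mir142b, beside a microRNA locus of blood cells, and the 2 near Mir17 were not called by limma, edgeR or DESeq2, and 0 had an unadjusted p under 0.05. The nearest of the 4, which touches the gene, stood at 92.3 and 125 against 62.7 and 88.5.

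The second experiment asked how BATF binding differs in Treg cells with the R397W Foxp3, in 4 other libraries. Its deposited list of 9973 BATF peaks was scored in these and also in the 4 libraries of the first comparison. The 2 peak lists and their scaling may therefore not be independent. Of the 9973 peaks 2204 lay on the sites. BATF was lower in R397W Treg cells at 70 of these 2204 (3.18%, against 8.04% of all 9973) and higher at 13 (0.59%, against 0.612%). Of all 9973 peaks 8.65% were called in either direction. The median control mean was 26.8 at the 2204 and 40.8 over all 9973 peaks, and the part of level in the shares was not tested. Most of the falls were at sites that were higher in Treg than in Tconv cells. Of 292 such sites 64 were lower in R397W and 0 higher, with a median log2 fold change of -0.948 and 269 below 0. Of the 281 sites that were lower in Treg cells 8 were higher in R397W and 0 lower, with a median of 0.71 and 230 above 0. Their median control mean was 10.6, and 3 reads make 10.4 in the control library of 144319 reads. A fall at these sites could therefore hardly have been called. The 0 counts were 0 with edgeR and DESeq2 and at an unadjusted p under 0.05 as well. Among 1631 sites without a call between Treg and Tconv cells 6 were lower and 5 higher (median 0.125). Across the 2204 sites the 2 log2 fold changes, from separate libraries, correlated with Pearson r = -0.635 and Spearman rho = -0.537, as a description over sites that are not replicates.

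**Figure D5:**
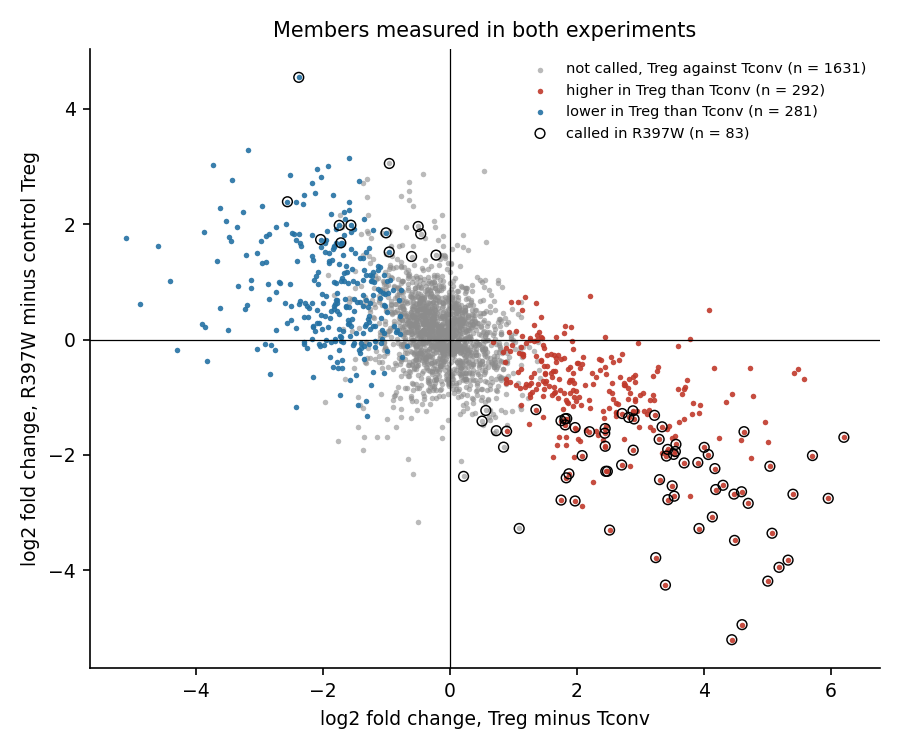
The log2 fold change of R397W minus control Treg cells (y) is plotted against that of Treg minus Tconv cells (x) for 2204 sites, with those called in R397W ringed. Sites higher in Treg cells lie mostly below 0 on the y axis and sites lower in Treg cells mostly above it.

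The number of calls rested on single libraries. Without the control library of 144319 reads the lower sites numbered 10 and the higher 5, and without the other control library 29 and 50. Without the trend of the spread 23 were lower and 6 higher, and under DESeq2 26 and 1. The medians on sites higher in Treg cells stayed between -0.993 and -0.773 over all settings tried, and those on sites lower in Treg cells between 0.528 and 0.937. BATF-only peaks at gene ends had 6 of 2384 lower and 10 higher, and peaks with IRF4 and Foxp3 236 of 1326 lower and 19 higher, with no test between the classes.

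The smallest p for a lower site belonged to Ptger2, at 103 and 107 in control and 23.9 and 29.8 in R397W Treg cells (log2 fold change -1.94, SE 0.327, adjusted p = 0.00407). A site within Galm, a galactose enzyme gene, stood at 103 and 111 against 17.1 and 32.6 (-2.13, SE 0.365). The Galm site lay 536 bp from an IRF4 peak and 477 bp from a Foxp3 peak, and the Ptger2 site 34858 and 31810 bp. Control and R397W libraries did not overlap at either, which their choice by smallest p makes likely. Neither call held without the trend (adjusted p = 0.0517 and 0.0627). The same few included 2 sites with no protein-coding gene within 100000 bp. At chr4:7961507-7961907 BATF stood at 71.0 and 48.4 against 5.13 and 2.08, the value of 3 reads in each R397W library, and at chr6:49656556-49656956 at 69.4 and 76.1 against 13.7 and 11.8 (-2.43, SE 0.434). Between Treg and Tconv cells the first of these stood at 43.5 and 56.5 against 8.13 and 2.14, a call lost without Treg library 2 (adjusted p = 0.0536). The chr6 site lost its R397W call without the control library of 144319 reads (adjusted p = 0.0879), as did Lsm4 (87.9 and 107 against 18.8 and 29.8; adjusted p up to 0.0713).

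Near effector Treg genes 9 of 10 matched sites had a log2 fold change below 0 in R397W cells, with a median of -1.06, and 2 were called lower. Over all 2204 matched sites 45.7% were below 0. Among the matched sites higher in Treg cells 92.1% were below 0 (median -0.948), a share near that of the effector list. Of the 2 effector sites called lower, 1 near Icos fell from 41.6 and 38.0 to 10.3 and 3.46 (limma adjusted p = 0.023). The other, near Il10, fell from 47.8 and 100 to 17.1 and 32.6 (limma adjusted p = 0.0412). Near Treg core genes 4 sites were matched, with 2 below 0 and a median of -0.00958. Limma, edgeR and DESeq2 called 0 of them, and 1 was lower at an unadjusted p under 0.05. The Il2rb site, far higher in Treg than Tconv cells, stood at 50.9 and 27.7 in control and 29.1 and 45 in R397W cells, and the groups overlapped. Lower sites of other lists were within Batf3 (26.2 and 45 against 5.13 and 7.62, limma adjusted p = 0.0358) and near Tgfbr2 (29.3 and 27.7 against 3.42 and 4.85, limma adjusted p = 0.0366). Others were within Rel (78.7 and 45 against 23.9 and 20.8) and 26541 bp from Itgav (72.5 and 104 against 32.5 and 13.2). Another site, inside Itgav, stood at 60.2 and 34.6 against 15.4 and 11.1 (limma adjusted p = 0.0444). Of the lower sites in this paragraph, only the Rel site and the Itgav site 26541 bp away were followed through the other settings. The Rel call (adjusted p = 0.0493) was lost when any 1 library was left out, and the Itgav call without the trend, the control library of 144319 reads or R397W library 2 (adjusted p up to 0.138).

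Higher sites in R397W cells were few and their calls unsteady. The site within Adamts14, one of the largest falls in Treg cells, was at 1.54 and 0 in control cells, both under the value of 3 reads, and at 41.0 and 31.9 in R397W cells (adjusted p = 0.00769). At 93471 bp from Ifngr1, the interferon gamma receptor gene, a site that was lower in Treg cells stood at 6.17 and 17.3 against 37.6 and 52.0 (limma adjusted p = 0.0408). Zfp710 (17 and 17.3 against 63.3 and 63.8), Cp, the ceruloplasmin gene (40.1 and 27.7 against 82.1 and 103), and Cers6, a ceramide synthase gene (1.54 and 6.92, both under the value of 3 reads, against 39.3 and 33.3), were not called between Treg and Tconv cells. The Zfp710 site lay 448 bp from an IRF4 peak and 407 bp from a Foxp3 peak. The calls at Adamts14, Zfp710, Cp and Cers6 were lost without R397W library 1 or 2. The Lef1 site that fell furthest in Treg cells was not called, at 7.71 and 17.3 in control and 18.8 and 9.7 in R397W cells.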

How the data were processed

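BATF binding was taken from 2 deposited tables of normalised peak scores, a unit of signal, in which the authors give 1 peak list, mostly 400 bp long, and 1 column per library. DiffBind 3.12.0, edgeR 3.38.4, MACS2 2.2.7.1 and Bowtie2 2.4.1 are named in the submitters' processing notes, with mm10 as the build and no filters given. All values were whole multiples of 1 step per library within 0.01, so reads per peak were recovered and used for edgeR 4.0.16 and DESeq2 1.42.0 as alternatives. A change common to most peaks would be scaled away. Other tables gave IRF4 and Foxp3 positions alone, and inputs were not used.

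Each table was fitted over all its peaks with limma 3.58.1 (R 4.3.3) on log2 of value plus 1. The fit was two-sided, with the spread following the mean (a trend). In the second experiment only the R397W and control columns entered the fit. An adjusted p under 0.05 (Benjamini and Hochberg over all peaks of the table) was a call, and edgeR's quasi-likelihood test was run with TMM scaling. All peaks were kept. The fits were tested on simulated data. Depth is known only as reads in peaks. The R397W controls' columns carry other numbers than their titles, so their group alone is known. The 3 reads taken as the floor of a library make 2.14 to 3.48 in the first and 2.08 to 10.4 in the second experiment.

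The rule for the sites names Ensembl gene bodies, and RefSeq spans were used. There are 6 sites longer than 400 bp and 1 on a scaffold without annotated genes. Site coordinates are those deposited, whose first base may be numbered 0 or 1. Windows and microRNA genes count from 1. Motifs by site were not analysed beyond the start windows, for want of a genome sequence. The sites, 14 gene lists and rules were chosen with earlier results of these data known. Named sites were, among those at or above the median level, the 6 largest rises and falls, then the 6 highest means, up to 2 of smallest p per list, the strongest site of the genes with the most sites (6 and ties), up to 4 of smallest p per direction in R397W, and the 2 nearest to the limit on each side. Values at some genes that the rule names are not reported here.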

Additional observations from a re-analysis of the deposited data

How the results depend on the processing

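Of 427 higher and 315 lower sites in Treg cells, 244 to 435 and 246 to 285 were called when a library was left out. Among peaks above the 25th percentile 108 and 63 were called, under quantile normalisation 540 were lower, and under DESeq2 208 were lower. The numbers do not pair the libraries (correlation of deviations 0.0882, 2 pairs), and with the replicate block 490 were higher and 385 lower. Other settings stayed within 1.5 times. In R397W, with 13 higher and 70 lower sites, leaving out a library gave 0 to 50 and 10 to 58. A pseudocount of 5 gave 22 higher and edgeR 25 higher. Without the trend there were 6 and 23, with DESeq2 1 and 26, and with quantile normalisation, which moved the median of all peaks from -0.0157 to 0.132, 39 were lower. No paired analysis was possible for R397W because the controls' titles are numbered otherwise than their columns and share no number with the R397W titles. Of the named sites 4 of 30 calls between Treg and Tconv cells and 10 of 11 in R397W were lost under at least 1 setting. Above the 25th percentile 4 sites of Treg core and 3 of effector Treg genes were higher, since fewer sites were tested. For all other changes the cause was not tested. In the shallowest library, of 144319 reads, 3 reads make 10.4, and levels under that were not distinguishable from 0.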
